A study of Caenorhabditis elegans with 15 samples.

Results

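The genes described here are FBF-2-bound, germline-enriched genes of Caenorhabditis elegans that carry only a clone name, such as T05B9.1, in the deposited tables. A gene was a member when the authors' tables flagged it as FBF-2-bound and as germline-enriched, when its name there had the form of a clone name, and when its mean level in WT was 20 CPM (the gene's counts scaled to a fixed library total) or more. There were 171 members among 46904 gene identifiers. Without the limit on level there were 184, and 548 genes with both flags and a level of 20 CPM or more had an assigned name. Members were thus chosen by the authors' flags and selected on mean WT CPM. The sources used here do not give how the authors set the flags, so binding, germline enrichment and WT level are not findings here.

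FBF-2 and its near-copy FBF-1 are PUF-family RNA-binding proteins of the nematode germline. They bind short elements in the 3′ untranslated regions (UTRs) of mRNAs, mostly repress those mRNAs, and keep germline stem cells from entering meiosis too early. A clone name comes from genome sequencing and says nothing about function, and such genes have no name for a phenotype, homologue or complex in the table.

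Libraries were made with an mRNA-Seq kit from whole adult worms of 5 genotypes, 3 libraries each. The molecule label is total RNA for WT, fbf-2 and 3xlnc. It is polyA RNA for fbf-1 and fbf-1 3xlnc, which also have a separate submission. Differences in level between these sets of genotypes cannot be told apart from those differences. The fbf-2 group carries a mutation in fbf-2. The 3xlnc group carries mutations in the long intervening non-coding RNA genes linc-4, linc-29 and linc-7. The fbf-1 3xlnc group joins those mutations to a mutation in fbf-1, and the fbf-1 group it is set against carries the fbf-1 mutation alone. WT is N2. The sources used here give neither alleles nor adult age. Nothing in the labels ties replicates to separate worm cultures, and p-values therefore reflect only library-to-library spread, possibly technical. The series title names the question as the part of 3 germline lncRNAs in condensation of PUM proteins and in germline differentiation.

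Total counts per library ran from 9068700 to 38453738, and WT replicate 1 was the shallowest. Ribosomal RNA genes took 4.62% of its counts and 0.516% and 0.976% of those of WT replicates 2 and 3. The 3 linc genes were at 0 counts in all 3xlnc and fbf-1 3xlnc libraries. The fbf-2 gene was at 6.10 to 7.30 CPM in fbf-2 and 26.0 to 32.1 CPM in WT, and the fbf-1 gene at 7.80 to 8.37 CPM in fbf-1 and 35.4 to 39.8 CPM in WT. The fbf genes are similar enough that some reads may be split between them. Same-numbered fbf-2 and WT libraries deviated together from their group means, so a fit with the replicate number as a block, called the blocked fit, is given beside that comparison where it changes a call. Titles state no pairing, and fbf-2 replicate 3 and WT replicate 2 also deviated together.

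All 171 members passed the low-count filter in every comparison, and the lowest count of any member in any library was 226. The annotation used here, release 115 on the build WBcel235, lists 168 members as protein-coding and 3 (C14B1.7, K11H3.4 and Y57A10A.1) as pseudogenes. It also gives an assigned name to 35 members (20.5%) that have only a clone name in the table. The members lie on all 5 autosomes, with 38 on chromosome I, 36 on II, 38 on III, 31 on IV and 28 on V. None lies on the X chromosome, which holds 14.3% of all genes tested in fbf-2 against WT. The X holds 0.365% of the FBF-2-bound germline genes with assigned names and 2.75% of the 437 clone-named germline genes of the same level without the FBF-2 flag. Scarcity of germline-expressed genes on the X is a known feature of this species.

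The longest annotated 3′ UTR of a member had a median of 190 bp. That of the named FBF-2-bound germline genes was 226 bp, that of the clone-named germline genes without the flag 138 bp, and that of all genes tested 153 bp. Median coding length was 1234.5 bp in members and 1122 bp in all genes tested. The exons of 17 members overlap those of another gene with at least 10% of their counts, and without a stated strand setting reads of such pairs cannot be told apart. There were 6 pairs of neighbouring members. Of these, 3 lie close together on 1 strand: T20F5.6 and T20F5.7 are 271 bp apart, W03A5.6 and T24G10.2 are 125 bp apart, and F53F4.12 and F53F4.14 are 85 bp apart.

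In WT the members' mean levels ran from 20.2 to 1056 CPM with a median of 83.7. Only 2 were above 500 CPM, 65 were at 100 CPM or more and 42 were under 50 CPM. The 10 highest held 25.1% of the members' WT counts. Just inside the limit were K03H1.7, C16A3.2 and Y43E12A.3, and just outside it were Y53C10A.1 at 18.9 CPM, Y57A10A.5 at 16.7 CPM and Y43F11A.6 at 16.6 CPM.

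Across all 15 libraries the median coefficient of variation of a member's CPM was 14.3%. At the same limit on level it was 12.1% in the named FBF-2-bound germline genes and 16.6% in the clone-named germline genes without the flag. Over all genes tested in fbf-2 against WT, whose median WT level was 13.4 CPM, it was 21.8%. In 151 members the highest library was less than 2 times the lowest. The least variable were K01G5.5 (dkc-1, 6.71%), F43G9.12 (mog-7, 6.77%) and F53F4.11 (6.99%). The most variable were F55G1.6 (37.1%), W03C9.5 (35.6%) and ZK643.2 (34.2%). For W03C9.5 the spread lay largely inside WT, where replicate 1 had 40.7 CPM against 15 and 21.8 CPM in the other libraries.

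The highest member was K07H8.10, now nucl-1, the worm nucleolin, an RNA-binding protein of the nucleolus. Its levels were 787, 873 and 903 CPM in fbf-2, 1024, 1123 and 1038 CPM in 3xlnc, 994, 856 and 892 CPM in fbf-1 3xlnc, 1065, 1024 and 974 CPM in fbf-1, and 870, 1185 and 1114 CPM in WT. The fbf-2 libraries were the lowest on average but overlapped WT, whose replicate 1 stood below the other WT libraries, and nucl-1 passed as lower in the blocked fit (log2 -0.42, adjusted p = 0.0183). W08E12.7, the next highest, had 888, 894 and 882 CPM in fbf-2 and 755, 973 and 916 CPM in WT, and none of its 3 comparisons passed the test. Divided by exon length, the order changed: M28.5 (snu-13), whose yeast and human homologues are core proteins of box C/D snoRNPs, was the highest at 1070 TPM (counts per exon length, scaled to a fixed sum) in WT, and nucl-1 had rank 5 at 537 TPM.

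**Figure D1:**
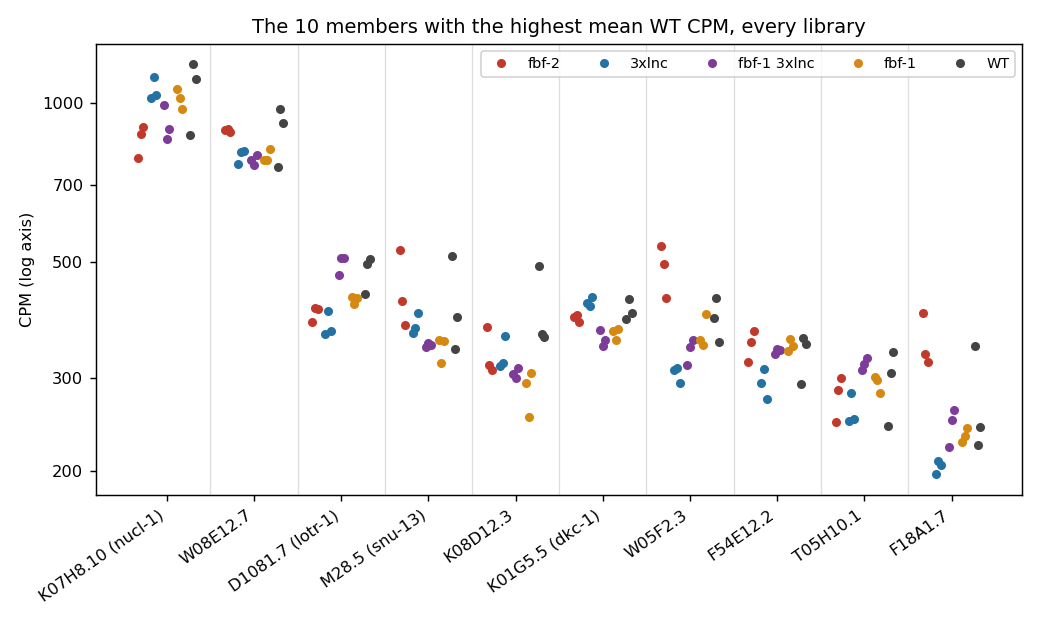
The 10 members with the highest mean WT level, with every library as a point, CPM on a log axis and genotypes in colour. K07H8.10 and W08E12.7 stand above the other 8 in every library, with lows of 787 and 755 CPM, and the genotypes overlap for most of the 10 genes.

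Some members have a known role. D1081.7 (lotr-1, a LOTUS and Tudor domain protein of germ granules) is described with the interaction. C38D4.4 (mip-1, a LOTUS-domain scaffold of P granules) had 135, 136 and 134 CPM in fbf-2 and 103, 100 and 113 CPM in WT. W03G9.2 (pid-4, a factor of piRNA silencing) had 54.5, 53.9 and 52.7 CPM in fbf-2 and 41.2, 41.3 and 41.2 CPM in WT. Both genes had all fbf-2 libraries above all WT libraries, and neither passed the unblocked test (log2 0.22 with adjusted p = 0.141, and log2 0.25 with adjusted p = 0.106). Both rose in the blocked fit, with adjusted p = 0.0415 for mip-1 and 0.0423 for pid-4.

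The synaptonemal complex, which holds homologous chromosomes together in meiosis, was represented by Y54E10A.12 (syp-5) and F57B10.4 (syp-6). For syp-5 the levels were 89.4, 87.6 and 82.2 CPM in fbf-2 and 69.6, 64.6 and 67.5 CPM in WT. For syp-6 they were 125, 123 and 122 CPM in fbf-2 and 105, 94.2 and 100 CPM in WT. Both pairs of groups stood apart, with log2 differences of 0.23 (adjusted p = 0.0876) and 0.17 (adjusted p = 0.178) that did not pass the unblocked test. In the blocked fit syp-5 rose (adjusted p = 0.0361) and syp-6 did not pass.

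Of the 21 members with a role set down for this description, 0 rose and 0 fell in fbf-2 against WT without the block, 0 rose and 1 fell in 3xlnc against WT, and 1 rose and 1 fell in fbf-1 3xlnc against fbf-1. In the blocked fit of fbf-2 against WT, 5 rose (mip-1, pid-4, syp-5, prp-18 and pigm-1) and 3 fell (lotr-1, tebp-2 and nucl-1). In that fit 15% of all genes tested rose and 17.0% fell. The 21 were added after their values were seen, so these counts are no result about members with a role as a group. The one that fell in 3xlnc was C49H3.9 (npp-27, a nuclear pore protein), at 61.1, 67.4 and 63.4 CPM in 3xlnc against 80.8, 78.9 and 77.0 CPM in WT (log2 -0.34, SE 0.0851, edgeR quasi-likelihood adjusted p = 0.0321). Its exons overlap an expressed gene on the opposite strand. The call of npp-27 was lost in 5 of the 6 fits that left out a library (adjusted p = 0.0803 to 0.170), with upper-quartile or germline scaling, without the filter and with the block. C31H1.8 (oops-1, a partner of the sperm factor SPE-11 in oocytes) fell in fbf-1 3xlnc, at 121, 133 and 134 CPM against 144, 151 and 147 CPM in fbf-1 (log2 -0.17, SE 0.0510, adjusted p = 0.0488). The call of oops-1 was lost in all 6 fits that left out a library.

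Among the others, the nucleolar enzyme dkc-1 (dyskerin) averaged 391 CPM in fbf-2, 419 CPM in 3xlnc, 358 CPM in fbf-1 3xlnc, 365 CPM in fbf-1 and 404 CPM in WT. T12E12.3 (tebp-2, which binds double-stranded telomeric DNA) averaged 47.6 CPM in fbf-2 and 54.8 CPM in WT, with overlap, and fell in the blocked fit (log2 -0.33, adjusted p = 0.0145). F32B6.3 (prp-18, a splicing factor) was at 66.2, 53.5 and 51.1 CPM in fbf-2 and 50.2, 27.6 and 33.8 CPM in WT, and did not pass the unblocked test (log2 0.51, adjusted p = 0.0805). In the blocked fit prp-18 rose (log2 0.52, adjusted p = 0.00168). Its exons overlap an expressed gene.

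The fbf-2 libraries were set against WT to ask whether transcripts that FBF-2 binds differ in abundance without it. A small set of members rose and none fell. Of 171 members, 14 passed as higher and 0 as lower (edgeR quasi-likelihood test, adjusted p below 0.05), against a background of 5.51% of all genes tested higher and 10.1% lower, so 8.19% of members rose. Of 2558 germline-enriched genes tested, 227 (8.87%) rose and 98 (3.83%) fell. The share of members higher was thus near that of germline-enriched genes and is no result about the members as a group. The changes were small, 0.33 to 0.54 on the log2 scale, and no member changed by 1 or more on that scale in any comparison. At an unadjusted p under 0.05, 54 members were higher and 8 lower, against 14.4% and 18.8% of all genes tested.

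The median log2 fold change of the members was 0.16, and that of all genes tested was -0.04. The clone-named germline genes without the FBF-2 flag had a median of 0.21 and 62 of 437 rose, and the named FBF-2-bound germline genes had a median of 0.07 and 25 of 548 rose. Fold changes use TMM scaling. For the members they lie 0.13 below the log2 ratio of CPM in this comparison.

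F30A10.3 (chromosome I, 9492610 to 9494555, minus strand) was at 113, 107 and 102 CPM in fbf-2 and 78.3, 61.5 and 63.6 CPM in WT. All fbf-2 libraries were higher than all WT libraries (log2 0.54, SE 0.0906, adjusted p = 0.00656). It was the only one of the 14 that passed in each of the 6 fits without 1 library, and its exons overlap those of an expressed gene on the opposite strand. C50B6.3 (chromosome V, 13313573 to 13315821) was at 152, 150 and 146 CPM in fbf-2 and 105, 93.1 and 107 CPM in WT, with no overlap (log2 0.42, SE 0.0891, adjusted p = 0.0170).

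C56A3.4 (chromosome V, 13550516 to 13551754) was at 59.6, 52.0 and 39.4 CPM in fbf-2 and 35.3, 29.3 and 30.4 CPM in WT (log2 0.54, SE 0.137, adjusted p = 0.0320). Its fbf-2 libraries differed by more than those of C50B6.3 and stayed above WT. Y54G9A.5 averaged 68.5 CPM in fbf-2 and 44.6 CPM in WT (log2 0.50), R11D1.1 63.3 CPM in fbf-2 and 42.5 CPM in WT (log2 0.45), and D2096.7 51.7 CPM in fbf-2 and 35.2 CPM in WT (log2 0.44). H05C05.2 averaged 49.8 CPM in fbf-2 and 34.0 CPM in WT (log2 0.43), and F53F4.12 averaged 53.4 CPM in fbf-2 and 36.2 CPM in WT (log2 0.43). The other 6 members that rose were F26F4.6, EEED8.14, T26A5.6, F28B3.5, C17E4.10 and Y71H2B.2, with log2 values of 0.33 to 0.42. In all 14, the fbf-2 and WT libraries did not overlap.

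In 105 members (61.4%) the fbf-2 libraries were all above the WT libraries and in 5 all below, against 24.7% of all genes tested higher and 15% lower. Overlap is judged on CPM without TMM scaling, here and elsewhere. On CPM the members' median log2 ratio was 0.29 in this comparison. The shares are not matched for level, as the median in WT was 83.7 CPM for members and 13.4 CPM for all genes tested. The count of calls depended on how the libraries were scaled and on each library. Without any 1 of the libraries other than WT replicate 1, 1 to 6 members (0.585% to 3.51%) rose and 0 fell, against a background of 1.37% to 2.43% higher and 3.68% to 5.76% lower. The share of members higher was below the background in each of these fits except that without WT replicate 2 (3.51% against 2.43%). The count was 6 higher and 6 lower with upper-quartile scaling, against a background of 3.35% and 12.6%. It was 4 higher (2.34%) and 6 lower with scaling on germline-enriched genes alone, against 3.19% and 12.9%, and there the median of members was still above 0 (0.08). With the replicate number as a block 60 rose and 9 fell, against a background of 15% and 17.0%, and without WT replicate 1, 63 rose and 12 fell, against 18.4% and 18.1%. All 14 were among the calls in both of these fits.

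The 9 members that fell in the blocked fit were K07H8.10, K08D12.3, D1081.7, D2005.4, T12E12.3, H06I04.3, W07E6.2, F53F4.11 and C14B1.7, with log2 values of -0.28 to -0.42. K08D12.3, for example, was at 376, 318 and 312 CPM in fbf-2 and 490, 364 and 360 CPM in WT, and W07E6.2 is now gldi-1.

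WT replicate 1 differed from the other WT libraries according to gene length. Among members with exons under 1200 bp its CPM was 0.36 higher on the log2 scale (median) than the mean of the other WT libraries, among members of 1200 to under 2000 bp 0.10 higher, and among members of 2000 bp or more lower, by a log2 value of -0.18. In fbf-2 replicate 1 the same medians were 0.23, 0.06 and -0.10. The fbf-2 over WT median of the members was 0.21, 0.20 and 0.03 in these 3 classes. All genes tested had the same order by length. Their medians were 0.45, 0.13 and -0.19 for WT replicate 1 and 0.20, 0.03 and -0.13 for fbf-2 replicate 1. For fbf-2 over WT they were 0.09, -0.03 and -0.16. The comparison of 3xlnc against WT also holds WT replicate 1. There 6, 8 and 0 of the 49, 76 and 46 members in these classes fell. In fbf-1 3xlnc against fbf-1, 0, 0 and 3 members rose and 8, 12 and 3 fell. Among the 5381, 4323 and 3689 genes tested in fbf-2 against WT, 101, 130 and 61 fell in 3xlnc. In fbf-1 3xlnc 415, 391 and 480 of those genes rose and 501, 406 and 265 fell. The part of gene length in the calls of any comparison was not tested.

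**Figure D2:**
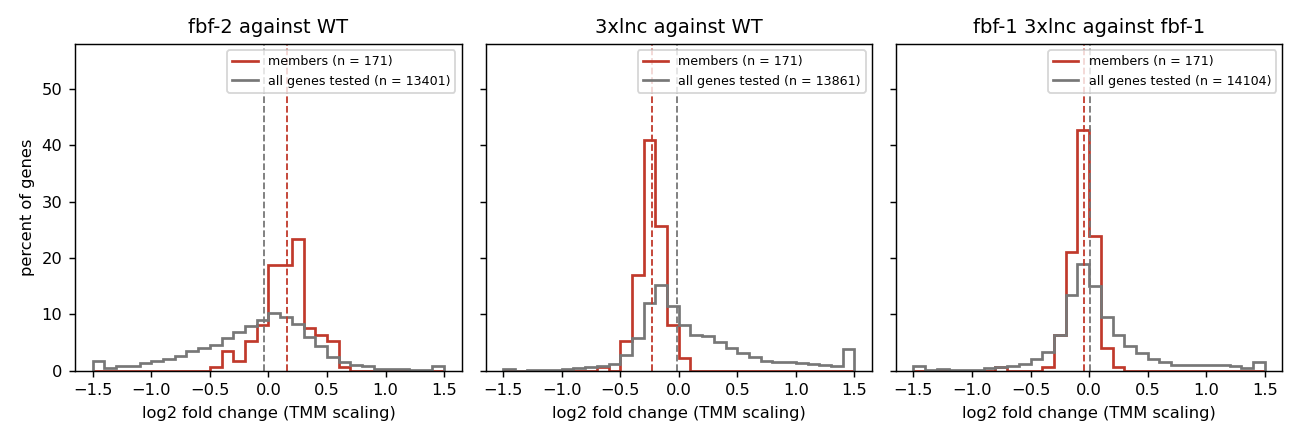
Distribution of log2 fold changes in 3 comparisons, as the percent of genes in each bin of 0.1, for the 171 members (red) and all genes tested (grey), with medians dashed and values beyond the axis placed in the end bins. The members are narrower than all genes in each panel, with medians of 0.16 in fbf-2 against WT, -0.23 in 3xlnc against WT and -0.05 in fbf-1 3xlnc against fbf-1.

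Loss of the 3 lincs in WT background was compared with WT itself. Members fell and none rose. Of 171 members, 0 rose and 14 fell, against a background of 9.41% of all genes tested higher and 2.11% lower. Sizes were 0.30 to 0.69 on the log2 scale. In 65 members (38%) the 3xlnc libraries were all below the WT libraries and in 0 all above, against 10.6% and 23.1% of all genes tested, and 79 members had an unadjusted p under 0.05, all of them lower, against 11.4% of all genes tested lower and 18.7% higher.

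The largest fall was that of T05B9.1 (chromosome II, 11260087 to 11261192, minus strand). It was at 136, 151 and 147 CPM in 3xlnc and 246, 223 and 214 CPM in WT, and the groups stood far apart (log2 -0.69, SE 0.0905, adjusted p = 0.00287). It passed in all 6 fits without 1 library and under every scaling, the unfiltered fit, DESeq2 and the block. C05C10.5 (chromosome II, 9939040 to 9940432) was at 157, 174 and 171 CPM in 3xlnc and 224, 216 and 221 CPM in WT (log2 -0.44, SE 0.0877, adjusted p = 0.0148).

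F35C11.5 (chromosome II, 8253743 to 8255319) was at 80.0, 87.3 and 88.2 CPM in 3xlnc and 126, 102 and 103 CPM in WT, with WT replicate 1 the highest library (log2 -0.41, SE 0.0903, adjusted p = 0.0212). C27D9.1 averaged 77.7 CPM in 3xlnc and 100.1 CPM in WT (log2 -0.41), and T05F1.2 averaged 194 CPM in 3xlnc and 249 CPM in WT (log2 -0.39). ZK856.11 averaged 34.0 CPM in 3xlnc and 44.9 CPM in WT (log2 -0.44). F32D1.7 averaged 121 CPM in 3xlnc and 152 CPM in WT (log2 -0.37), and F56F11.4 averaged 70.8 CPM in 3xlnc and 88.7 CPM in WT (log2 -0.36). The other 6 that fell were C14B1.9 (gldi-5), Y18D10A.11, C08F8.3, C49H3.9 (npp-27), C18E3.9 (melo-2) and F49C12.9, with log2 values of -0.30 to -0.35.

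The median of members was -0.23 and that of all genes tested -0.02. Named FBF-2-bound germline genes also had a median of -0.23, with 43 of 548 lower and 0 higher, and clone-named germline genes without the flag had a median of -0.20, with 22 of 437 lower and 2 higher. Scaling on germline-enriched genes moved the median of all genes to 0.14 and left 1 member lower, T05B9.1, with a median over members of -0.07, where the background was 0.736%. Upper-quartile scaling left 3 lower against a background of 1.05%. Without WT replicate 1, 98 members fell against a background of 16.4%, and without each of the other libraries 1 to 7 fell, against 0.241% to 1.68%.

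**Figure D3:**
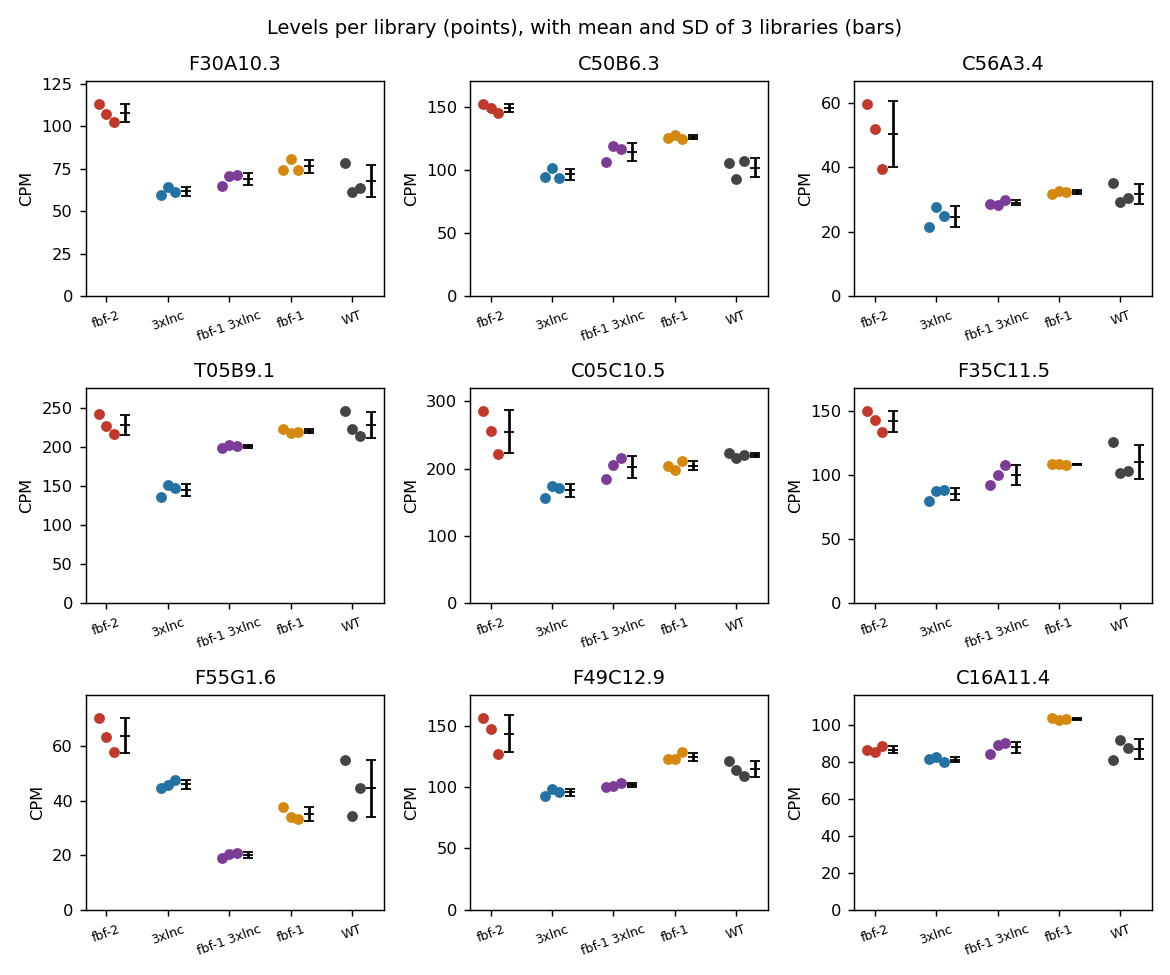
CPM per library (points) with mean and SD of 3 libraries (bars) for 9 members, genotypes from fbf-2 on the left to WT on the right, each axis starting at 0. F30A10.3, C50B6.3 and C56A3.4 are highest in fbf-2, T05B9.1, C05C10.5 and F35C11.5 are lowest in 3xlnc, and F55G1.6 is lowest in fbf-1 3xlnc at 19.0 to 21.0 CPM.

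The same lincs were removed in an fbf-1 mutant background and compared with fbf-1. Here members fell more often than they rose. Of 171 members, 3 rose and 23 fell, against a background of 9.43% of all genes tested higher and 8.49% lower. Without 1 library 0 to 5 rose, against a background of 4.45% to 9.51%, and 6 to 16 fell, against 3.45% to 9.57%, with 6 falls when fbf-1 replicate 1 was left out. Called falls were 0.12 to 0.78 and called rises 0.14 to 0.24 on the log2 scale. In 56 members (32.7%) the fbf-1 3xlnc libraries were all below the fbf-1 libraries and in 7 all above, against 21.2% and 17.7% of all genes tested. The median of members was -0.05 and that of all genes 0.003. Of the 548 named FBF-2-bound germline genes 16 rose and 64 fell, and of the 437 clone-named germline genes without the flag 13 rose and 86 fell. Falls thus outnumbered rises in both of these sets as well and are not particular to the members.

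The largest fall was that of F55G1.6 (chromosome IV, 7473517 to 7474959, plus strand). It was at 19.0, 20.5 and 21.0 CPM in fbf-1 3xlnc and 37.9, 34.1 and 33.2 CPM in fbf-1 (log2 -0.78, SE 0.0660, adjusted p = 9.86e-05). In this gene the 2 groups were separated by more than 10 CPM, and no other genotype came as low.

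F49C12.9 (chromosome IV, 9314817 to 9316215) was at 100.2, 101 and 103 CPM in fbf-1 3xlnc and 123, 123 and 129 CPM in fbf-1 (log2 -0.29, SE 0.0449, adjusted p = 0.00339). F26F4.6 (chromosome III, 4891608 to 4893640) was at 22.2, 22.7 and 24.8 CPM in fbf-1 3xlnc and 29.9, 28.9 and 29.6 CPM in fbf-1 (log2 -0.33, SE 0.0597, adjusted p = 0.00706). C16A11.4 (chromosome II, 4227046 to 4229157) was at 84.7, 89.4 and 90.4 CPM in fbf-1 3xlnc and 104, 103 and 103 CPM in fbf-1 (log2 -0.22, SE 0.0429, adjusted p = 0.0104). In these 3 genes no fbf-1 3xlnc library reached the fbf-1 libraries.

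With F55G1.6, C27B7.5 (log2 -0.23) and B0001.3 (log2 -0.21), these are the 6 falls that passed in each of the 6 fits without 1 library. The other named falls were Y110A2AR.1 (log2 -0.27), F33E11.3 (-0.25) and F33E11.2 (-0.23), of which the last 2 are neighbours on opposite strands of chromosome V, 15 bp apart, and reads of such pairs can be hard to assign.

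The 3 that rose were D1081.7 (lotr-1), C41D11.3 and T05H10.1. For lotr-1 (chromosome I, 8487618 to 8490938) the levels were 471, 507 and 509 CPM in fbf-1 3xlnc and 429, 416 and 427 CPM in fbf-1, with no overlap (log2 0.24, SE 0.0507, adjusted p = 0.0140). For C41D11.3 (log2 0.17) and T05H10.1 (log2 0.14) the rise was smaller. None of the 3 passed in each of the 6 fits without 1 library.

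**Figure D4:**
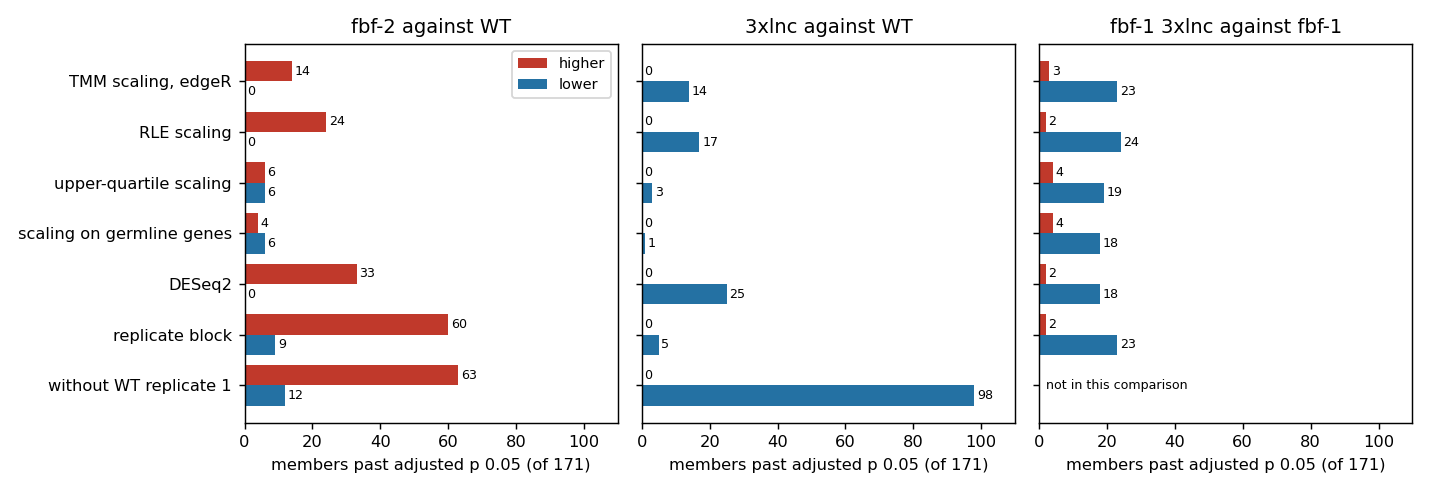
Members past the threshold (of 171) in each comparison under 7 ways of fitting, higher in red and lower in blue, numbers beside the bars. In fbf-2 against WT the count higher runs from 4 with scaling on germline genes to 63 without WT replicate 1, and in fbf-1 3xlnc against fbf-1 the count lower is 18 to 24 in the fits drawn and 6 to 16 in the fits without 1 library, which are not drawn there.

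Whether the lincs' effect differs between backgrounds was tested as the difference of the 2 log2 fold changes, fbf-1 background minus WT background, over 12 libraries. The 2 linc comparisons share no library. Of 171 members, 5 were higher and 1 was lower, against a background of 2.54% of all genes tested higher and 3.66% lower, so the share of members higher was near the background. The molecule label differs between the pairs (total RNA for WT and 3xlnc, polyA RNA for the fbf-1 pair), so background cannot be told apart from that difference.

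T05B9.1 had a difference of 0.58 (SE 0.0973, adjusted p = 0.00287). Its fall was -0.69 in WT background and -0.12 in fbf-1 background, where it was at 198, 202 and 201 CPM in fbf-1 3xlnc and 223, 218 and 218 CPM in fbf-1. F55G1.6 had a difference of -0.80 (SE 0.152, adjusted p = 0.00650). It was at 44.5, 45.8 and 47.6 CPM in 3xlnc and 55.1, 34.3 and 44.5 CPM in WT (log2 0.02), so the groups overlapped there.

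For lotr-1 the difference was 0.63 (SE 0.141, adjusted p = 0.0166). In WT background it was at 365, 402 and 369 CPM in 3xlnc and 435, 494 and 507 CPM in WT, a lower level that did not pass the test (log2 -0.38, adjusted p = 0.0657), and it rose in fbf-1 background. In C05C10.5 (0.44, adjusted p = 0.0445), C27D9.1 (0.43, adjusted p = 0.0454) and C49H3.9 (npp-27, 0.32, adjusted p = 0.0470) the values in fbf-1 background were near 0. T05B9.1 and F55G1.6 passed under all 17 settings run, and lotr-1 under 12. Without WT replicate 1, 43 members were higher and 1 was lower, against a background of 10.4% and 7.92%.

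**Figure D5:**
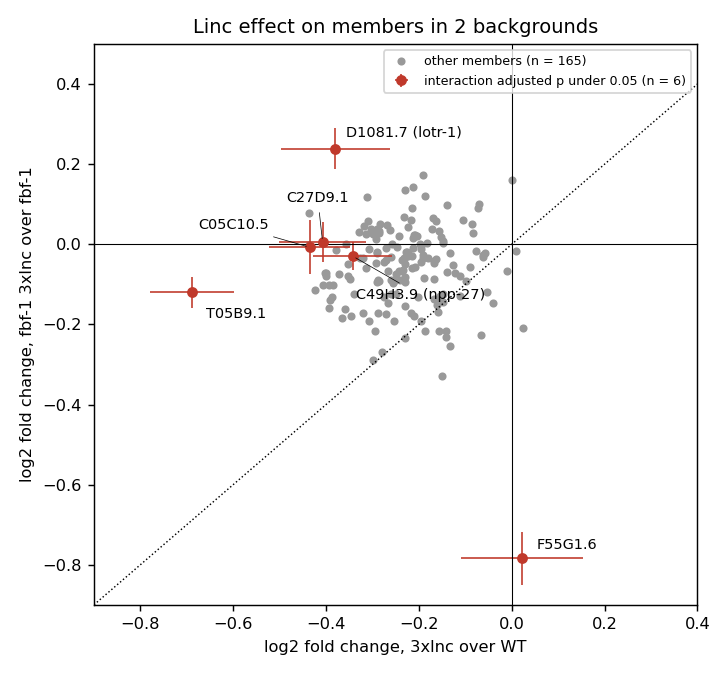
Each of the 171 members by its log2 fold change in 3xlnc over WT (x axis) and in fbf-1 3xlnc over fbf-1 (y axis), with the 6 members past the interaction test in red with their SE and the dotted line marking equal change. T05B9.1 lies at -0.69 and -0.12, F55G1.6 at 0.02 and -0.78, and lotr-1 at -0.38 and 0.24.

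Across the 3 comparisons 122 members passed in none, 44 in 1, 5 in 2 and 0 in all 3. The same counts were not taken over all genes tested, so these are no result about the members as a group. The 5 were F49C12.9 and C08F8.3, which fell in both linc comparisons, and F26F4.6, H05C05.2 and EEED8.14, which rose in fbf-2 and fell in fbf-1 3xlnc. H05C05.2 was at 51.9, 48.6 and 48.8 CPM in fbf-2, 25.9, 28.6 and 26.3 CPM in 3xlnc, 29.2, 30.6 and 31.0 CPM in fbf-1 3xlnc, 35.3, 36.2 and 32.8 CPM in fbf-1, and 39.5, 30.4 and 32.1 CPM in WT. Its fbf-2 libraries were the highest of all 15 and its 3xlnc libraries the lowest.

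Marker genes of tissues moved with these comparisons. The summed CPM of 46 sperm genes was 173 to 267 in the fbf-2 libraries. In 3xlnc libraries it was 625 to 844, in fbf-1 3xlnc 360 to 845, in fbf-1 178 to 279 and in WT 330 to 458. Of the sperm genes tested, 26 of 42 fell in fbf-2, 36 of 42 rose in 3xlnc and 33 of 44 rose in fbf-1 3xlnc. The summed CPM of 21 cuticle genes was 18625 to 19418 in the fbf-2 libraries, 28449 to 29254 in 3xlnc and 21269 to 27965 in WT, and 6 of them fell in fbf-2, 8 rose in 3xlnc, and 3 rose and 1 fell in fbf-1 3xlnc. That of 18 intestine genes was 51563 to 62835 in the fbf-2 libraries, 80404 to 87322 in 3xlnc and 114201 to 115541 in fbf-1 3xlnc. In the fbf-1 libraries it was 122697 to 130438, and in those of WT, which differ in molecule label, 59143 to 102015. Of the intestine genes, 2 rose and 7 fell in fbf-2, 3 rose in 3xlnc, and 3 rose and 5 fell in fbf-1 3xlnc. Of 16 muscle genes 1 fell in fbf-2, 4 rose in 3xlnc and 3 rose in fbf-1 3xlnc. Among the germline lists, 2 of 25 oocyte genes fell in fbf-2, 1 in 3xlnc and 2 in fbf-1 3xlnc. Of 20 mitotic-zone genes 2 fell in 3xlnc, and of 17 germ granule genes 2 fell in fbf-2 and 2 rose in fbf-1 3xlnc. Counts this small in short lists were not tested against the shares of all genes. The oocyte and mitotic-zone lists both had a median log2 of -0.30 in 3xlnc, where that of the members was -0.23. Of 13 neuron genes, 1 rose and 1 fell in fbf-1 3xlnc. Of the 18 known FBF targets, 3 rose (fbf-1, fog-1 and fog-3) and 1 fell (fbf-2 itself) in fbf-2, 1 rose (fog-3) and 1 fell (cyb-2.1) in 3xlnc, and 1 rose (gld-2) and 2 fell (fog-1 and fog-3) in fbf-1 3xlnc. The rises of fog-3 start from a very low level, with means of 0.560 CPM in WT, 5.08 CPM in fbf-2 and 2.72 CPM in 3xlnc. The summed CPM of the members was 21521 to 22901 in the fbf-2 libraries, 16622 to 18020 in those of 3xlnc, 17757 to 18626 in those of fbf-1 3xlnc, 18807 to 18990 in those of fbf-1 and 19460 to 19906 in those of WT. As a share of all germline-enriched counts it was 7.47% to 8.02% in every library. In whole worms fewer germ cells and less RNA per germ cell cannot be told apart, and the part of tissue makeup in the members' changes was not tested.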

How the data were processed

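The measurement is mRNA sequencing of whole adults, 15 libraries in 5 genotypes. Per the submitters' processing notes, the authors used STAR 2.7.9a, featureCounts of Subread 2.0.1, DESeq2 1.34.0 and WBcel235; the sources used here give no strand or multi-mapping setting. The deposited values used are raw counts per gene, whole numbers, per the file headers; 18 normalised columns were not used, nor were the authors' fold changes. The fbf-1 3xlnc columns were matched to their group only. Gene identifiers were placed with annotation release 115 (46817 of 46904 found). No genome sequence was used, so the planned search for FBF elements was not run.

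In R 4.3.3, edgeR 4.0.16 (filterByExpr, TMM, quasi-likelihood F test) was run on all genes of each comparison's 6 libraries (12 for the interaction), with Benjamini-Hochberg adjustment over all genes tested and a threshold of 0.05. In simulated data, with changed genes drawn from all those tested, it found 18.8% of 1.5-fold changes in fbf-2 against WT. It found 34.7% in 3xlnc against WT, 44.7% in fbf-1 3xlnc against fbf-1 and 12.8% in the interaction. Of its calls, 12 of 148, 2 of 148, 17 of 169 and 6 of 124, in that order, were unchanged genes. A member that did not pass can thus have changed by that much. CPM uses total counts, and TPM uses exon length from the annotation. SE refers to log2 fold changes. Members and lists were chosen with earlier results of these data known. Named members are the 10 highest, up to 8 largest called rises and falls without overlap in each comparison, those called in 2 comparisons or in the interaction, the limits of the level rule and the extremes of variation; members with known roles and the blocked calls were added after their values were seen.

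Same-numbered fbf-2 and WT libraries shared deviations from their group means (across-gene correlations of 0.499, 0.315 and 0.282), so the blocked fit stands beside that comparison where it changes a call. Of the different-numbered libraries, fbf-2 replicate 3 and WT replicate 2 had 0.267, and the rest ran from -0.482 to -0.0337. Titles state no pairing, and these correlations do not establish that equal numbers mark pairs. In the other comparisons same-numbered libraries did not all deviate together. Alternatives were RLE and upper-quartile scaling, no filter, DESeq2 1.42.0, the block, each library left out, other level limits and, chosen after seeing the data, scaling on germline-enriched genes.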

Additional observations from a re-analysis of the deposited data

Results flagged for a closer look

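In 6 members the effect of losing the 3 lincs differed between the fbf-1 background and the WT background by the interaction test, given here as the log2 fold change in fbf-1 background minus that in WT background. The difference was 0.63 for D1081.7 (lotr-1), 0.58 for T05B9.1, 0.44 for C05C10.5, 0.43 for C27D9.1, 0.32 for C49H3.9 (npp-27) and -0.80 for F55G1.6. T05B9.1 and F55G1.6 passed in all 17 settings, lotr-1 in 12, C05C10.5 in 6, C27D9.1 in 5 and C49H3.9 in 4. Without WT replicate 1, 43 members were higher and 1 was lower in this test, against 10.4% and 7.92% of all genes tested. With all libraries 5 were higher and 1 lower, against 2.54% and 3.66%, so the count higher was near the background and is no result about the members as a group.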

How the results depend on the processing

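In fbf-2 against WT, 14 members rose and 0 fell. RLE scaling gave 24 higher (7.1% of all genes tested), upper-quartile scaling 6 higher and 6 lower, and scaling on germline-enriched genes 4 and 6. No filter gave 25 higher (5.24%), DESeq2 33 higher (4.92%) and the replicate block 60 and 9. In the unblocked fit with TMM scaling 5.51% of all genes tested were higher and 10.1% lower. In that fit a WT limit of 50 CPM left 129 members with 5 higher, so 5 of the 14 that rose were at that level. A limit of 10 CPM gave 179 members with 15 higher and 1 lower. Fits without 1 library gave 1 to 63 higher and 0 to 12 lower, with the highest counts without WT replicate 1. In 3xlnc against WT, 0 rose and 14 fell; upper-quartile scaling gave 3 lower, DESeq2 25 (1.75%), scaling on germline-enriched genes 1, the replicate block 5 (1.14%), and fits without 1 library 1 to 98 (98 without WT replicate 1, 1 to 7 otherwise). In fbf-1 3xlnc against fbf-1, 3 rose and 23 fell. The block gave 2 and 23, against 10.3% higher and 8.56% lower of all genes tested. It paired libraries by column number, and the fbf-1 3xlnc columns were matched to their group only, so that pairing is uncertain. Fits without 1 library gave 0 to 5 higher and 6 to 16 lower, the fewest lower without fbf-1 replicate 1. In the interaction, 5 were higher and 1 lower; upper-quartile scaling and no filter gave 3 higher each (2.09% and 1.45%), DESeq2 9 (1.92%), and fits without 1 library 1 to 43. The cause of these moves was not tested. No named member reversed direction past the threshold in any fit. Every member had 226 or more counts in each library, and each group had 3 libraries.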
